A study of Brassica rapa with 12 samples.

Results

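The 40 genes described here were lowered in stem and raised in bud where BrCHR39 was silenced. They were chosen by the measured levels themselves, from 41020 listed genes. A gene was kept where silenced stems averaged at most 0.25 times the wild type stem level and silenced buds at least 4 times the wild type bud level, with a mean of 2 CPM or more (reads per 1000000 reads assigned to genes in that library) both in silenced buds and in wild type stems, and at least 1 read in silenced stems and in wild type buds. All 12 libraries and both silencing contrasts entered that choice, so the changes in stem and in bud are given as a description and support nothing. The mRNA profiles came from 4 groups of 3 libraries, namely stems of BrCHR39-silenced lines, stems of wild type plants, buds of BrCHR39-silenced lines and buds of wild type plants, all of Brassica rapa aged 8 weeks and grown in pots under long days. The sources used here do not give how BrCHR39 was silenced, how many lines were pooled or sampled, or which kind of bud was taken.

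Brassica rapa is the crop species of turnip and Chinese cabbage. Chromatin remodelling ATPases spend ATP to slide, evict or exchange nucleosomes, and thereby change which stretches of DNA other proteins can reach. The series places BrCHR39 among these enzymes and ties it to apical dominance, in which the growing shoot tip holds back the side buds. Auxin moving down the stem, strigolactones and cytokinins are the hormones best known for this control in flowering plants.

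The libraries held 12275190 to 15693349 assigned reads each, so a count of 0 allows up to 3 reads, or 0.191 to 0.244 CPM, counting error only. Libraries of a group correlated at 0.990 to 0.992 on log2 CPM across genes, which are not independent replicates. Whether replicate libraries came from different plants is not stated in the labels, and each p-value therefore reflects a spread between libraries that could be technical. The files list identifiers without names, and none of the 40 was matched in the gene table used, so no function is assigned to any of them. The level of BrCHR39 and the markers of stem and bud cells were not analysed here for the same reason. In whole stems and buds, fewer cells of a type and less RNA per cell cannot be told apart.

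As the rule required, the 40 genes were lower in silenced than in wild type stems and higher in silenced than in wild type buds. Their median level was 0.832 CPM in silenced stems against 12.9 CPM in wild type stems. In silenced buds the median was 9.68 CPM, against 1.78 CPM in wild type buds. The silenced over wild type ratio in stem had a median of 0.105 and ran from 0.00494 to 0.248, which is 4.03-fold to 202-fold lower. In bud the median ratio was 4.95, with a range of 4.01 to 289.6. The bud changes lay close to the limit of the rule, with 29 genes under 6-fold and 7 at 10-fold or more. The stem changes reached further, with 20 genes down 10-fold or more and 11 down 32-fold or more.

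**Figure D1:**
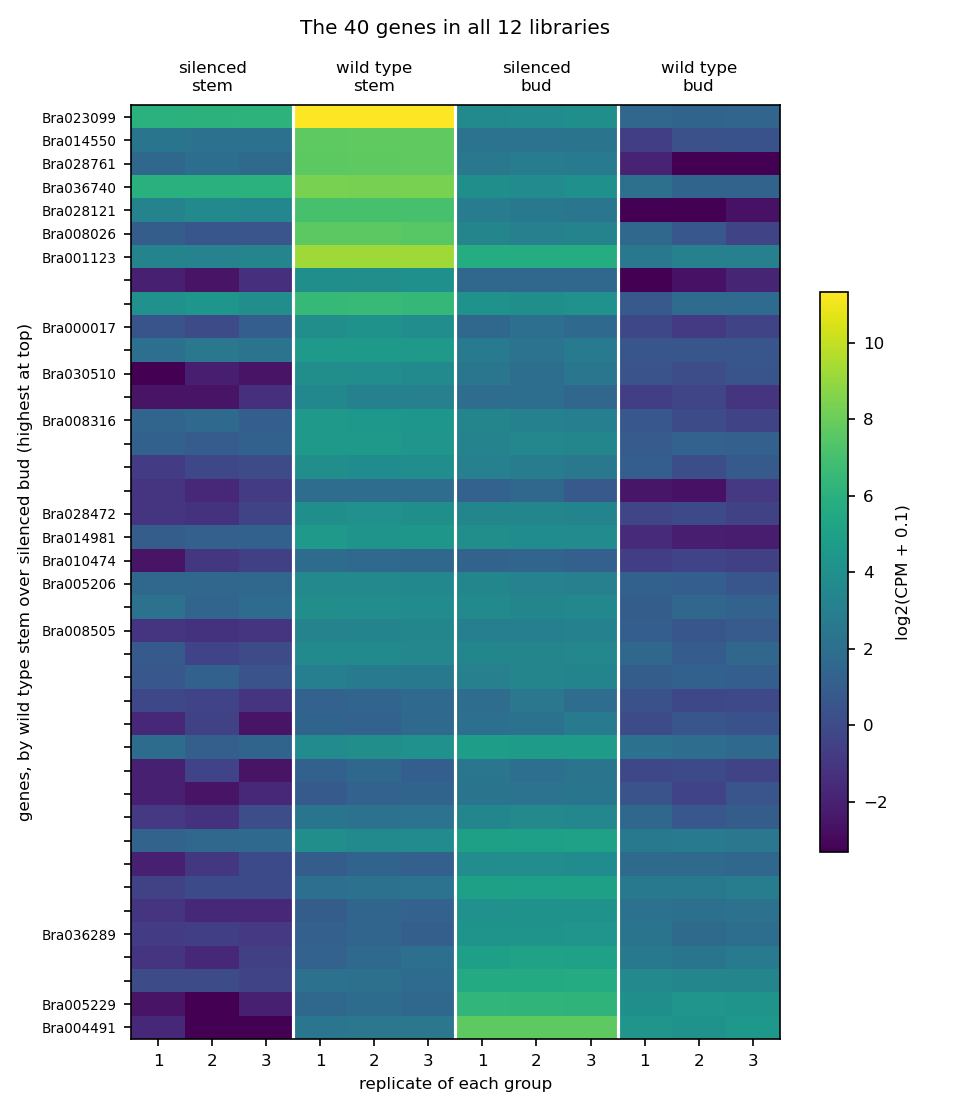
Level of each of the 40 genes in each of the 12 libraries as log2(CPM + 0.1), with genes ordered by the ratio of wild type stem to silenced bud and identifiers given for most genes named in the text. Within each tissue the darker (lower) side is silenced in stem and wild type in bud, wild type stem stands out in the upper rows and silenced bud in the lower rows, and libraries of a group look alike except where few reads were counted.

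Every gene of the 40 passed the low-count filter and was called in both tissues by edgeR's quasi-likelihood test at an adjusted p under 0.05. All 40 were lower in silenced stems, where 32.1% of the 28114 tested genes were called lower, and all 40 were higher in silenced buds, where 38.5% were called higher. The fitted log2 changes had a median of -3.22 in stem, against 0.05 over all tested genes, and of 2.25 in bud, against -0.03 over all tested genes. The 3 silenced stem libraries lay below the 3 wild type stem libraries in all 40 genes, as they did in 33.0% of the tested genes. In bud the silenced libraries lay above the wild type libraries in all 40, as in 41.2% of the tested genes. The difference between the bud effect and the stem effect was called positive for all 40, against 35.5% of the tested genes. The rule fixed each of these directions, so nothing is read from them.

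Nearest to the stem limit inside the set was Bra005206, 4.03-fold lower in silenced stems at 2.87 CPM against 11.5 CPM in wild type stems. The nearest gene outside, Bra040628, was 3.95-fold lower at 0.802 CPM in silenced stems against 3.17 CPM in wild type stems. At the bud limit Bra010474 was just inside with a ratio of 4.01, at 2.42 CPM in silenced buds and 0.604 CPM in wild type buds. Bra017117 was just outside with a ratio of 3.98, at 8.28 CPM in silenced buds and 2.08 CPM in wild type buds. These distances from the limits were smaller than the spread between libraries, as the wild type bud levels of Bra010474 show at 0.570, 0.668 and 0.573 CPM.

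Genes chosen without 1 replicate number kept their direction in the libraries left out. When the rule was applied to replicates 1 and 2 of each group, 50 genes were chosen, of which 34 belong to the 40. In replicate 3 all 50 were lower in the silenced stem library and higher in the silenced bud library than in the wild type libraries, and 27 passed both 4-fold limits. The same reading gave 42 genes chosen without replicate 2, all 42 with both directions kept and 28 past both limits. Without replicate 1 it gave 41 genes, all 41 with both directions kept and 22 past both limits. The median ratios in the left-out libraries ran from 0.0968 to 0.130 in stem and from 4.78 to 4.98 in bud. The libraries left out belong to the same groups as those used for the choice. Libraries of a group correlated at 0.990 to 0.992 and may be technical replicates, so nothing is read from this agreement.

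The stem and the bud contrast use different libraries, so the meeting of both conditions could be counted. Among 18650 genes that met all read and CPM minimums, 578 met the stem limit, 276 met the bud limit and 40 met both. The 40 were 6.92% of the genes past the stem limit, whereas 1.48% of all 18650 passed the bud limit. Put the other way, they were 14.5% of the genes past the bud limit, whereas 3.10% of all 18650 passed the stem limit. These shares use the limits that chose the genes and were not tested. With the same limits, 251 genes were raised in silenced stems and lowered in silenced buds, 144 were lowered in both silenced tissues and 38 were raised in both. Passing limits in both tissues was thus not particular to the 40. Scaling by TMM, which adjusts library totals for a few dominant genes, left 34 genes in the set, 32 of them among the 40, beside 268 with the opposite pattern.

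With no minimum asked of the silenced bud level, 1115 genes met the stem conditions. Of the 1028 of these with reads in both bud groups, 60 were at least 4-fold higher in silenced buds, 20 of them under 2 CPM there. A further 211 were higher by a factor of 2 to 4, and 427 stayed within a factor of 2. Another 118 had a ratio between 0.25 and 0.5, and 212 were at 0.25 or less. The 40 genes were 3.59% of the 1115. Of all 41020 listed genes, 1.40% met the bud conditions of the rule. That base includes genes without the stem levels asked of the 1115, so these shares are not alike.

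**Figure D2:**
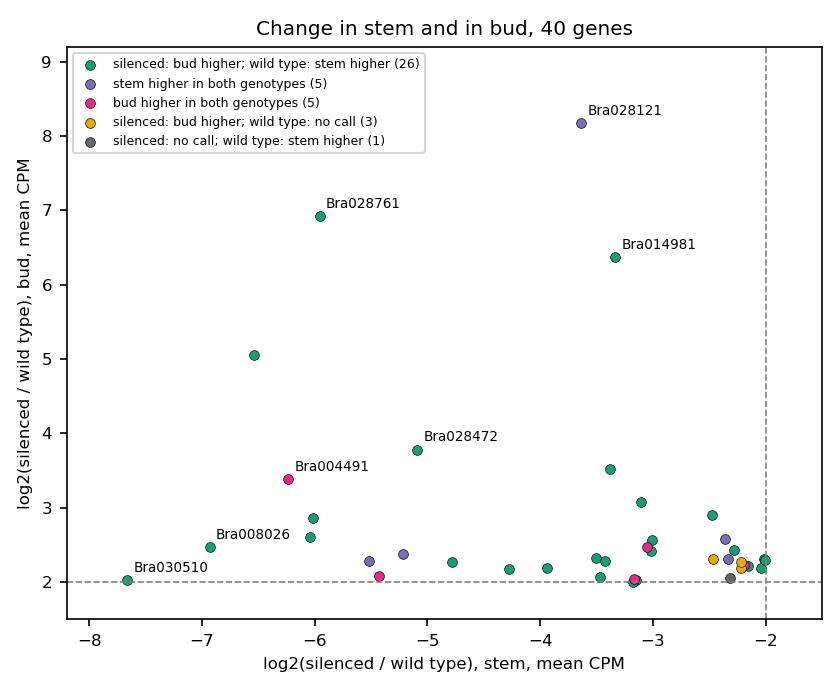
Log2 ratio of silenced to wild type mean CPM in stem (horizontal axis) and in bud (vertical axis) for the 40 genes, coloured by the tissue in which each was higher in silenced and in wild type plants. Dashed lines mark the limits of the rule, and most points lie just above the bud limit while they spread widely along the stem axis.

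Among genes with at least 10 reads in silenced stems, the steepest falls were those of Bra008026 and Bra001123. Bra008026, a gene of 636 coding bases, stood at 1.93, 1.43 and 1.36 CPM in silenced stems against 195, 196 and 186 CPM in wild type stems. The stem groups were 122-fold apart (fitted log2 change -6.91 ± 0.19, SE). In buds it stood at 10.1, 8.32 and 9.29 CPM in silenced plants against 2.85, 1.47 and 0.701 CPM in wild type plants. The wild type bud libraries differed among themselves, yet all lay below the silenced ones.

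Bra001123, of 645 coding bases, had 9.09, 8.87 and 10.1 CPM in silenced stems against 605, 612 and 599 CPM in wild type stems, a 64.7-fold fall. The same gene had 53.9, 54.1 and 53.6 CPM in silenced buds against 5.78, 8.28 and 8.22 CPM in wild type buds, a 7.25-fold rise. Libraries of a group differed little beside these gaps. Per coding length it was the second most abundant of the 40 both in wild type stems (938 ± 10.5 FPKM, SD, n = 3) and in silenced buds (83.5 ± 0.359 FPKM, SD, n = 3). FPKM, which divides CPM by the coding length in kilobases, is the scale used here to compare different genes.

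Bra030510 had the largest fold fall of all in stem, but on few reads. It had 0, 2 and 1 reads in the silenced stem libraries against 14.9, 14.6 and 12.7 CPM in the wild type ones, a 202-fold fall with a 95% counting interval of 68.0 to 971. In buds it had 5.25, 3.76 and 5.25 CPM in silenced plants against 1.22, 1.00 and 1.27 CPM in wild type plants, 4.08-fold higher. The groups did not overlap in either tissue.

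The largest rises in bud with at least 10 reads in wild type buds belonged to Bra028472 and Bra004491. Bra028472, of 1995 coding bases, stood at 10.5, 10.6 and 9.61 CPM in silenced buds against 0.733, 0.868 and 0.637 CPM in wild type buds, 13.7-fold higher. In stems it stood at 0.358, 0.341 and 0.716 CPM in silenced plants against 15.8, 17.2 and 15.3 CPM in wild type plants, 34.1-fold lower. Ranked by the smaller of the log2 changes in stem and bud, this gene came first among genes with at least 10 reads in each low group, followed by Bra008316.

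Bra008316, of 1128 coding bases, had 2.65, 3.07 and 2.0 CPM in silenced stems against 23.4, 21.9 and 20.9 CPM in wild type stems. Its bud levels were 9.92, 8.46 and 7.82 CPM in silenced plants against 1.47, 0.935 and 0.701 CPM in wild type plants. The fall of 8.58-fold and the rise of 8.44-fold were nearly equal. Both genes had groups well apart, and 8 of the 40 genes changed at least 8-fold in both tissues.

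A few rises in bud were larger but started from a handful of reads. Bra028121, at 216 bases the shortest coding sequence of the set, had 7.30, 5.91 and 5.25 CPM in silenced buds against 0, 0 and 1 reads in the wild type bud libraries, a ratio of 289.6 with a 95% counting interval of 46.7 to 10397. Bra028761, of 975 coding bases, had 5.76, 7.38 and 6.60 CPM in silenced buds against 2, 0 and 0 reads in wild type buds, a ratio of 121 with an interval of 38.9 to 1177. Bra014981, of 1431 coding bases, had 14.8, 14.0 and 13.1 CPM in silenced buds against 3, 2 and 2 reads in wild type buds, a ratio of 82.9 with an interval of 41.2 to 213. All of them had at most 3 reads in any wild type bud library and were present in each silenced bud library.

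In stems these genes were not low in wild type plants. Bra028121 stood at 9.23, 12.1 and 10.7 CPM in silenced stems against 132, 136 and 131 CPM in wild type stems. For Bra028761 the stem values were 2.86, 3.82 and 3.22 CPM in silenced plants against 196, 207 and 212 CPM in wild type plants. Bra014981 stood at 1.93, 2.18 and 2.22 CPM in silenced stems against 23.2, 19.3 and 21.3 CPM in wild type stems. Each of them was detected in all 6 silenced libraries, whereas in wild type plants nearly all of their reads came from stem.

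**Figure D3:**
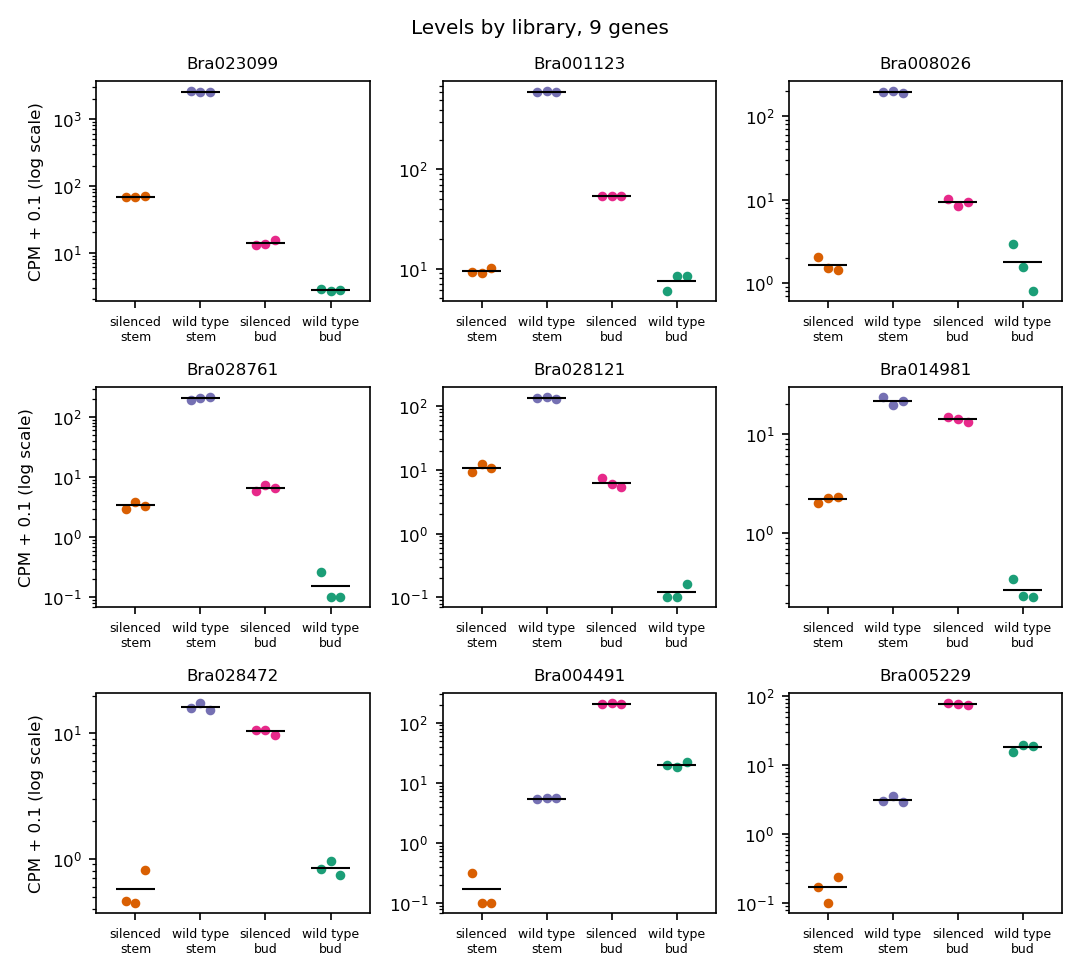
CPM + 0.1 on a log scale in each library for 9 of the genes named in the text, with silenced stem, wild type stem, silenced bud and wild type bud from left to right and a line at each group mean. Wild type stem stands highest in 7 panels and silenced bud in those of Bra004491 and Bra005229, and no silenced library overlaps the wild type libraries of its tissue.

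Added together, the 40 genes made up 216 ± 4.56 CPM in silenced stems against 4613 ± 26.7 CPM in wild type stems (SD, n = 3 each), a ratio of 0.0467. In silenced buds they made up 789 ± 3.55 CPM against 127 ± 2.95 CPM in wild type buds (SD, n = 3 each), a ratio of 6.19. A single gene carried 55.2% of the wild type stem sum. That gene, Bra023099, of 993 coding bases, had 66.5, 68.5 and 70.1 CPM in silenced stems against 2557, 2546 and 2530 CPM in wild type stems, a 37.2-fold fall. In buds it was a minor transcript at 12.8, 13.3 and 15.4 CPM in silenced plants against 2.77, 2.54 and 2.68 CPM in wild type plants. Without it the stem ratio of the sum was 0.0711, at 147 ± 3.01 CPM in silenced stems and 2069 ± 16.5 CPM in wild type stems, and the bud ratio was 6.21.

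Per coding length Bra023099 was also the most abundant of the set in wild type stems, at 2562 ± 13.7 FPKM (SD, n = 3). The lowest mean among the 40 in wild type stems was 0.564 FPKM and the median 8.04 FPKM, against a median of 6.27 FPKM over the 31065 genes with reads in that group. In silenced buds the 40 ranged from 1.83 to 133 FPKM with a median of 9.0 FPKM, against 8.06 FPKM over 31862 genes. In their low groups the medians were 0.880 FPKM in silenced stems, against 6.56 FPKM over 30375 genes, and 1.60 FPKM in wild type buds, against 7.19 FPKM over 33644 genes. The set thus covered ordinary levels in its high groups, which the rule bounds from below, and mostly low levels in the others. In silenced stems 5 of the 40 still stood above the median of all genes, and in wild type buds 5 did.

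The sum of both log2 changes shows whether the fall in stem or the rise in bud was larger. It is built from the values that chose the genes, so it is given as a description and nothing is read from its calls. The sum was called negative for 17 genes, 42.5% of the 40, where 33.8% of all tested genes were called negative. It was called positive for 2 genes, 5% of the 40, where 33.0% of all tested genes were called positive, and 21 genes were not called (edgeR's quasi-likelihood test, adjusted p under 0.05). Its median was -0.62 over the 40 and -0.03 over all tested genes. With limma on log2(FPKM + 1), which shrinks changes between low levels, 16 genes were called negative and 10 positive.

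The most negative sums were those of Bra030510 at -5.53 ± 0.92 and Bra008026 at -4.45 ± 0.28 (SE). In both the stem fall was over 100-fold and the bud rise under 6-fold. The 2 positive sums were those of Bra028121 at 3.85 ± 1.48 and Bra014981 at 2.95 ± 0.60 (SE), both with at most 3 reads in any wild type bud library. With limma on log2(FPKM + 1) these sums were 1.13 for Bra028121, 0.59 for Bra014981 and -2.22 for Bra030510. Without wild type bud replicate 3, which holds the only wild type bud read of Bra028121, its sum was 5.61, and without silenced stem replicate 2 that of Bra030510 was -6.38. Bra008316, whose changes were nearly equal, had a sum of -0.04 ± 0.31 (SE), and Bra036740 had -0.05 ± 0.15 (SE). A sum that was not called does not show equal changes: for 21 genes these libraries did not tell the sizes apart.

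**Figure D4:**
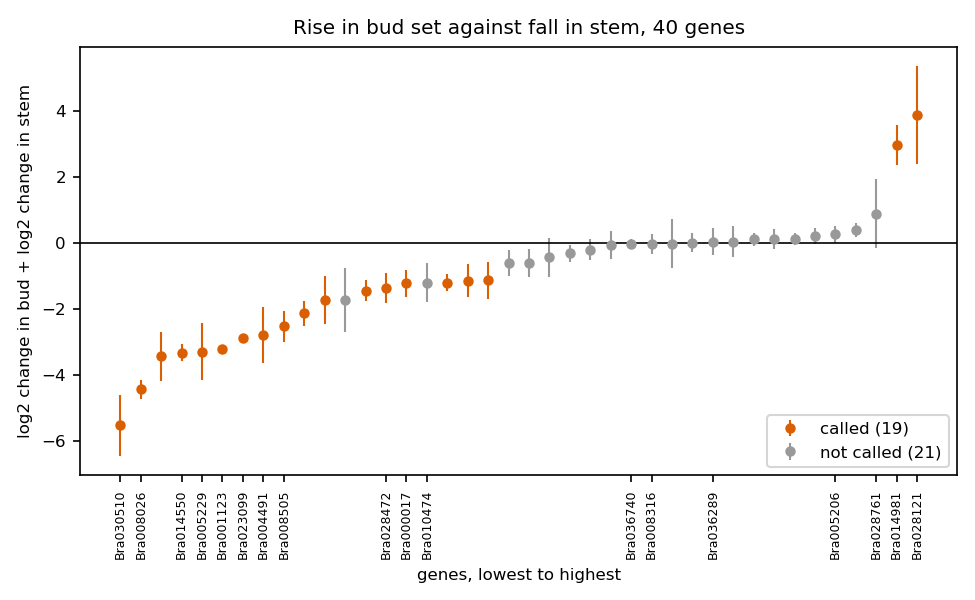
Sum of the fitted log2 changes (silenced over wild type) in bud and in stem for the 40 genes, ordered from lowest to highest, with bars of 1 standard error and colour showing whether edgeR called it different from 0. Negative values mean that the stem fall was the larger change, as in 17 called genes, and positive values that the bud rise was, as in 2.

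Most of the genes were higher in bud in silenced plants and higher in stem in wild type plants. Buds were compared with stems within each genotype in the same fit. These contrasts are not those of the rule but use its libraries, and the rule favours low wild type bud and low silenced stem levels. Their calls and p-values are therefore given as a description. In silenced plants 34 of the 40 genes, 85%, were called higher in bud and 5 lower, against 43.6% and 41.5% of all tested genes. In wild type plants 5 of the 40 were called higher in bud and 32, 80%, lower, against 45.6% and 40.6% of all tested genes. The median log2 change from stem to bud was 2.78 in silenced plants (0.05 over all tested genes) and -2.98 in wild type plants (0.11 over all tested genes). Scaling by library totals alone moves the median of all genes by 0.45 in silenced and 0.37 in wild type plants, and then 34 were called higher and 3 lower in silenced buds, and 8 higher and 32 lower in wild type buds.

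The largest group, 26 genes, was called higher in bud in silenced plants and higher in stem in wild type plants. Bra028472, Bra008316, Bra008026, Bra001123, Bra030510, Bra028761 and Bra014981 belong to it. Its levels had medians of 7.11 FPKM in silenced buds and 0.880 FPKM in silenced stems, and of 1.1 FPKM in wild type buds and 8.76 FPKM in wild type stems. Within it the log2 difference of bud and stem ran from 0.55 to 5.49 in silenced plants and from -12.20 to -1.37 in wild type plants. Bra028761 was at the low end of both, with 6.58 ± 0.809 CPM in silenced buds against 3.30 ± 0.484 CPM in silenced stems (SD, n = 3 each). By the rule, the bud over stem ratio of each of the 40 genes is higher in silenced than in wild type plants by at least the product of both fold limits, on mean CPM, so nothing is read from the turn in order. How many of all tested genes had the same pair of calls was not counted, for this group or the smaller ones.

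A group of 5 genes was called higher in stem in both genotypes with TMM scaling. It comprised Bra023099, Bra036740, Bra028121, Bra014550 and Bra030820, the last named after its values were seen, as are 6 genes of the small groups that follow. The median level was 229 FPKM in wild type stems and 45.5 FPKM in silenced stems, and the lowest member stood at 93.1 FPKM in wild type stems. Bra036740, of 1419 coding bases, had 15.5, 13.4 and 16.1 CPM in silenced buds against 63.7, 63.7 and 66.4 CPM in silenced stems. It had 4.15, 2.54 and 2.42 CPM in wild type buds against 326, 322 and 328 CPM in wild type stems. Bra030820, of 966 coding bases, had 17.9, 15.3 and 17.2 CPM in silenced buds against 16.6, 20.5 and 15.2 CPM in silenced stems, and 1.63, 3.40 and 3.44 CPM in wild type buds against 90.8, 91.7 and 87.3 CPM in wild type stems. The silenced libraries of bud and stem overlapped in Bra030820 and not in Bra036740, and the rule fixed the narrower gap of both genes in silenced plants.

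Bra023099 and Bra036740 had the largest log2 differences in favour of stem in silenced plants, at -2.75 ± 0.06 and -2.55 ± 0.07 (SE, adjusted p = 6.38e-99 and 4.87e-85 by edgeR). In wild type plants the largest were those of Bra028121 at -12.35 ± 1.47 and Bra028761 at -12.20 ± 1.03 (SE, adjusted p = 1.18e-120 and 7.96e-134 by edgeR), which rest on 1 and 2 reads in wild type buds. Without the library that holds those reads (wild type bud replicate 3 for Bra028121, replicate 1 for Bra028761) the fits gave -14.10 and -14.76, and limma on log2(FPKM + 1) gave -9.14 and -7.65. Bra014550, of 1095 coding bases, came near equality in silenced plants, with 4.67, 4.70 and 4.87 CPM in silenced buds against 5.15, 4.37 and 4.37 CPM in silenced stems, and these libraries overlapped. On mean CPM it was slightly higher in silenced buds, at 4.745 CPM against 4.629 CPM in silenced stems. With TMM scaling the direction turned, and its log2 difference of bud and stem was -0.41 ± 0.14 (SE, adjusted p = 0.00646 by edgeR). The wild type levels of Bra014550 were 0.570, 1.13 and 1.21 CPM in buds against 210, 214 and 213 CPM in stems. Other fits put 2 to 5 genes in this group, with 3 under library totals alone.

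Another 5 genes were higher in bud in both genotypes. Bra004491, of 1563 coding bases, had 207, 209 and 208 CPM in silenced buds against 3, 0 and 0 reads in silenced stems. In wild type plants it had 19.5, 18.0 and 22.2 CPM in buds against 5.28, 5.42 and 5.44 CPM in stems. It was the most abundant of the 40 in silenced buds per coding length, at 133 ± 0.653 FPKM (SD, n = 3). The silenced over wild type rise in bud was 10.4-fold, and the fall in stem was 75.2-fold with a 95% counting interval of 25.8 to 373.

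Bra005229, of 1440 coding bases, had 78.4, 76.1 and 73.7 CPM in silenced buds against 1, 0 and 2 reads in silenced stems. In wild type plants it had 15.6, 19.8 and 18.7 CPM in buds against 2.90, 3.46 and 2.86 CPM in stems. Both genes were higher in bud in either genotype, and the rule fixed the wider margin in silenced plants. The log2 differences of bud and stem were 10.93 ± 0.84 for Bra004491 and 9.48 ± 0.86 for Bra005229 in silenced plants, against 1.52 ± 0.11 and 2.19 ± 0.15 in wild type plants (SE, largest adjusted p = 1.51e-30 by edgeR). The silenced values rest on 3 reads in silenced stems for each gene, and limma on log2(FPKM + 1) gave 7.0 for Bra004491 and 5.68 for Bra005229. Without silenced stem replicate 1, which holds all 3 reads of Bra004491, its fitted value was 14.36, and without replicate 3 that of Bra005229 was 10.36. Leaving out wild type stem replicate 1 put 3 genes in this group, and library totals alone put 8.

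Bra005291, of 768 coding bases, had 48.9, 49.9 and 51.5 CPM in silenced buds against 0.931, 0.955 and 0.716 CPM in silenced stems, and 11.6, 10.3 and 10.1 CPM in wild type buds against 4.29, 4.18 and 3.42 CPM in wild type stems. Bra025192, of 1503 coding bases, had 30.9, 34.8 and 33.3 CPM in silenced buds against 0.358, 0.205 and 0.573 CPM in silenced stems, and 6.03, 5.07 and 6.69 CPM in wild type buds against 2.31, 3.07 and 4.05 CPM in wild type stems. Bra018223, of 759 coding bases, had 16.9, 18.0 and 18.5 CPM in silenced buds against 0.358, 0.205 and 0.215 CPM in silenced stems, and 4.40, 4.21 and 4.40 CPM in wild type buds against 1.91, 2.68 and 2.37 CPM in wild type stems. In all of them silenced bud was the highest group and silenced stem the lowest, with no overlap between neighbouring groups.

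The remaining 4 genes were not called in 1 genotype. In 3 of them buds and stems were not told apart in wild type plants, while silenced buds were higher than silenced stems. Bra036289, with 4068 bases the longest coding sequence of the set, is among these. It had 18.8, 19.0 and 20.1 CPM in silenced buds against 0.501, 0.546 and 0.429 CPM in silenced stems, and 4.89, 3.27 and 3.82 CPM in wild type buds against 2.18, 2.68 and 2.02 CPM in wild type stems. Its wild type bud and stem libraries did not overlap, yet the log2 difference of 0.41 ± 0.21 missed the threshold (SE, adjusted p = 0.0511 by edgeR).

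Bra000517, of 1827 coding bases, had 31.8, 30.9 and 31.5 CPM in silenced buds against 0.644, 0.887 and 0.859 CPM in silenced stems, and 5.87, 5.87 and 7.33 CPM in wild type buds against 4.03, 4.44 and 4.74 CPM in wild type stems. Bra008260, of 1617 coding bases, had 14.4, 14.6 and 13.8 CPM in silenced buds against 0.143, 0.409 and 0.859 CPM in silenced stems, and 3.18, 3.20 and 2.99 CPM in wild type buds against 1.91, 2.48 and 2.16 CPM in wild type stems. On CPM these wild type groups lay apart by a small margin that TMM scaling reduces. The last gene, Bra000710, of 906 coding bases, had 6.35, 4.70 and 6.28 CPM in silenced buds against 3.94, 5.39 and 4.8 CPM in silenced stems, which overlapped. In wild type plants it was higher in stem, at 1.38, 1.40 and 1.40 CPM in buds against 24.1, 23.3 and 22.9 CPM in stems.

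**Figure D5:**
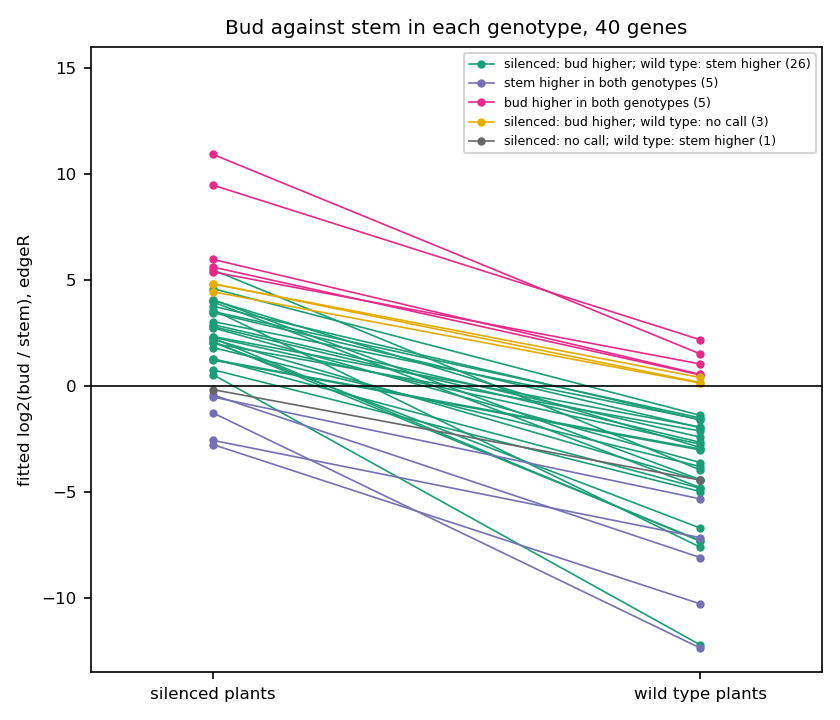
Fitted log2 difference of bud and stem for the 40 genes in silenced plants (left) and wild type plants (right), with a line per gene and colour showing how edgeR called the difference in each genotype. Called on opposite sides of 0 were 26 genes, while 5 were called above it in both genotypes and 5 below it. The other 4 were not called in 1 genotype, and their lines do not cross 0.

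Silenced buds did not reach the wild type stem level in most of the genes. Comparing both high groups directly, silenced bud was called higher than wild type stem for 13 genes, 32.5%, where 44.2% of all tested genes were called higher. It was called lower for 24 genes, 60%, where 41.9% of all tested genes were called lower, and 3 genes were not called. The median log2 difference was -0.79 over the 40 and 0.05 over all tested genes. Library totals alone, which move the median of all genes by 0.43 here, gave 16 higher and 21 lower. The extremes were Bra004491 at 4.83 ± 0.10 and Bra005229 at 4.19 ± 0.14 on the higher side, and Bra023099 at -7.95 ± 0.05 and Bra014550 at -5.91 ± 0.10 on the lower side (SE, log2, largest adjusted p = 2.24e-83 by edgeR).

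Across the 40 genes, levels in the 2 high groups were only weakly related, as were those in the 2 low groups. Spearman's rho of FPKM in silenced buds and wild type stems was 0.157, and that of FPKM in silenced stems and wild type buds was 0.113. The log2 ratios in stem and bud had a rho of -0.240, over a range that the rule cuts on both sides. These values describe 40 genes measured in shared libraries and carry no p.

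By mean level the 40 genes showed 5 orders of the 4 groups. The rule put wild type stem above silenced stem and silenced bud above wild type bud. Only wild type stem or silenced bud could therefore be highest. In 12 genes wild type stem was highest, followed by silenced bud, silenced stem and wild type bud. In 8 the order was wild type stem, silenced bud, wild type bud and silenced stem, and in 8 it was silenced bud, wild type stem, wild type bud and silenced stem. A further 8 had silenced bud first, then wild type bud, wild type stem and silenced stem. In 4 wild type stem was followed by silenced stem, silenced bud and wild type bud. Silenced bud was thus highest in 16 genes and wild type stem in 24.

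Coding length, which the rule did not use, was close to that of other genes. The 40 had a median of 1185 bases with quartiles of 739.5 and 1576.5, against 1041 bases with quartiles of 636 and 1551 over the 35651 genes with reads. The shortest after Bra028121 was Bra000017 with 234 bases, at 1.29, 0.955 and 2.0 CPM in silenced stems against 15.2, 18.4 and 14.4 CPM in wild type stems. In buds it had 2.85, 3.96 and 3.08 CPM in silenced plants against 0.815, 0.467 and 0.701 CPM in wild type plants.

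Second in length was Bra008505 with 3270 bases, at 0.358, 0.341 and 0.358 CPM in silenced stems against 9.37, 9.53 and 10.3 CPM in wild type stems. In buds it had 7.95, 7.99 and 8.46 CPM in silenced plants against 1.96, 1.40 and 1.72 CPM in wild type plants. The rule fixed the pattern in all 40 genes, so nothing is read from its presence in short and long ones. The median of edgeR's biological coefficient of variation was 6.14% in the 40 and 4.84% over all tested genes. It is estimated between libraries that could be technical replicates. The tested genes were not matched for level, and the rule favours low levels in silenced stems and wild type buds. Nothing is read from the difference.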

How the data were processed

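Per the labels' protocols, RNA was extracted from stems and buds with Trizol and sequenced on Illumina libraries. The submitters' processing notes list featureCounts 2.0.1, HISAT2 2.1.0, TopHat2 and Bowtie 1.0.1 with no role for any. Genome build, annotation and strandedness are not given in the sources used. The deposited count table holds unnormalized whole read numbers for 41020 genes. The deposited FPKM values, made by the authors for 36230 genes, equal the count over the library total and a gene length. For 35651 genes that length was a whole number (relative tolerance 1e-06) and always a multiple of 3, so it is a coding length. Reads shared by near-identical gene copies may have been divided or dropped during counting.

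The rule for the 40 genes was applied to CPM on library totals. Tests used the counts in edgeR 4.0.16 (R 4.3.3) with filterByExpr (minimum count 10, 28114 genes kept), TMM scaling and 1 term per group over all 12 libraries, with Benjamini-Hochberg adjustment over all genes kept and two-sided calls at 0.05. Standard errors of fitted changes are Wald errors, and SDs are between libraries. Counting intervals are exact at 95%. The 40 genes, the comparisons and the rule for naming were chosen with earlier results of these data known. Without gene names, at most 2 genes per direction and question were named, by largest change, level, length or nearness to a limit, with 10 reads in the low group asked of those picked by ratio. Bra030510, Bra028761 and Bra014981 have fewer reads there and are named for other questions. The planned marker lists could not be matched to identifiers (1 of 41020 matched, none of the 40) and were not tested. The fit was run on simulated counts with less spread between libraries than the median tested gene had here. The rule was tried on a few made-up genes.

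Alternatives were DESeq2 1.42.0 and its size factors, library totals alone, no low-count filter, limma 3.58.1 on FPKM as log2 with pseudocounts of 1 and 0.1 (genes reaching 1 FPKM in 3 libraries), a replicate block, fits to the compared groups only, other limits of the rule and leaving out each library.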

Additional observations from a re-analysis of the deposited data

Results flagged for a closer look

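In all 40 genes bud and stem differed in their response to silencing (edgeR's interaction term), which the choice of the genes had fixed. The difference of the log2 changes, bud minus stem, was 8.76 for Bra028472 and 6.12 for Bra008316, the genes whose smaller log2 change, of stem and bud, was largest among those with at least 10 reads in each low group. Other genes of the 40 had a larger difference, and limma on log2(FPKM + 1) gave 5.04 for Bra028472. Groups of 3 libraries are too small to look for single libraries that stand apart.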

How the results depend on the processing

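The size of the set depends on its limits: 683 genes passed with 2-fold limits, 8 with 8-fold limits and 21 with a minimum of 5 CPM. Leaving out each library gave 39 to 43 genes, 36 to 39 of them among the 40, and 30 genes had at least 10 reads in each low group. With both directions added, all 138 recomputed counts of called genes stayed within 1.5 times their value. Those for stem, for bud and for the difference of both effects were 40 in every fit. The choice of the genes had fixed these, so nothing is read from them. By direction, positive sums were 10 with limma on log2(FPKM + 1) in place of 2. Genes lower in silenced bud than silenced stem were 3 with library totals alone and limma on log2(FPKM + 1) and 2 with limma on log2(FPKM + 0.1), in place of 5. Genes higher in wild type bud than wild type stem were 8 with library totals alone and limma on log2(FPKM + 1) and 3 without wild type stem replicate 1, in place of 5. The 474 recomputed changes of the named genes kept direction and call, but sizes that rest on a few reads moved. These genes were picked for large changes or high levels, so nothing is read from the kept directions and calls. The replicate numbers do not pair the libraries: deviations of same-numbered libraries correlated at -0.015 to 0.012, and with the replicate block the counts of called genes were as without it, 40 in stem, 40 in bud and 19 for the sum. The count of genes higher in stem in both genotypes was 3 with limma on log2(FPKM + 1) and 2 on log2(FPKM + 0.1), and that of genes higher in bud in both was 8 with limma on log2(FPKM + 1). The bud ratio of the summed level was 5.90 with TMM and 5.84 with DESeq2's size factors. Depth limits the folds of genes with a few reads in a low group: 6 genes had under 10 reads over the silenced stem libraries and 5 over the wild type bud libraries.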
